A study of Mus musculus with 6 samples.

Results

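The matrix metalloproteinases (MMPs) and their tissue inhibitors (TIMPs) were examined in RNA sequencing data from primary mouse embryonic fibroblasts (MEFs), cells of the connective tissue that are grown from dissociated mid-gestation embryos. The genes followed were Mmp2, Mmp3, Mmp10, Mmp11, Mmp13, Mmp14 and Mmp19 with Timp1, Timp2 and Timp3, taken by their symbols from the deposited expression table, and all 10 were found among its 26898 genes. The cells were of the C57BL/6 strain. The WT group was Kansl1 fl/fl, with the Kansl1 gene floxed and no Cre recombinase. The knockout (KO) group was Kansl1 fl/fl/CAG-cre, in which a ubiquitous promoter drives a Cre that tamoxifen activates. All 6 samples, 3 of each group (WT 4, 5 and 8, KO 3, 7 and 10), were at passage 3 and had received 1 μM tamoxifen for 48 h. KANSL1 is a subunit of the NSL complex, a chromatin regulator that acts at gene promoters, and the comparison asks which genes change their transcript levels when it is lost. No group with Cre alone was analysed here, so loss of Kansl1 and the presence of active Cre cannot be told apart. The samples are bulk RNA, in which fewer cells of a type and less RNA per cell cannot be told apart.

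MMPs are zinc-dependent proteases that cut collagens, proteoglycans and other proteins of the extracellular matrix, and they are made as inactive precursors. The collagenases open the triple helix of fibrillar collagen, the gelatinases degrade the unwound chains, the stromelysins cut a broad range of matrix proteins, and the membrane-type enzymes work at the cell surface. TIMPs bind the active site of MMPs and block it. Fibroblasts are a main source of both, and the genes of the stromelysins and collagenases are textbook targets of AP-1, the transcription factor made of Fos and Jun proteins.

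Expression was given in TPM, a unit that corrects read numbers for gene length and brings every sample to 1 total, so that levels can be compared between genes. Between 17655495 and 27718259 reads per sample were recovered from these values. Values by sample follow the order WT 4, 5 and 8 and KO 3, 7 and 10 throughout. The targeted gene Kansl1 stood at 28.5, 26.7 and 24.4 TPM in the WT samples, against 13.7, 15.8 and 14.4 TPM in the KO samples. Kansl1 fell to 55.1% of its WT level (log2 fold change -0.82, SE 0.11, limma adjusted p = 0.000859), counted over all exons of the gene. Log2 fold changes are differences of mean log2(TPM + 1) unless another setting is named. Each of 10 fibroblast markers reached 1 TPM in every sample. The summed levels of epithelial markers were 65.6 to 72.2 TPM in WT and 80.9 to 95.4 TPM in KO samples, those of endothelial markers 1.16 to 1.90 TPM and 2.39 to 3.18 TPM, and those of muscle markers 80.3 to 108 TPM and 70.4 to 86.1 TPM. Nearly all of the muscle sum came from Des, and no other muscle marker reached 1 TPM in any sample.

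Of the 10 MMP and TIMP genes, 0 were called higher and 0 lower in KO MEFs by limma at the thresholds of the study, an adjusted p under 0.005 with a log2 fold change above 0.5 or below -0.5. Among all 14799 genes tested, 1.64% were called higher and 9.03% lower. At an unadjusted p under 0.05, 5 of the 10 genes were higher and 1 was lower, against 12.2% of all tested genes higher and 27.2% lower. Voom, a limma method run on the recovered reads, called 1 of the 10 genes higher (Mmp3) and 0 lower, against 2.93% of all tested genes higher and 14.5% lower. At a looser threshold, an adjusted p under 0.05 with the same limit on the fold change, Mmp3 and Mmp10 rose and 0 genes fell, against 4.69% of all tested genes higher and 16.6% lower. The log2 fold change was positive for 7 of the 10 genes with a median of 0.30, and for 6308 of the 14799 tested genes with a median of -0.07. In 3 genes (Mmp3, Mmp10 and Mmp11) every KO sample lay above every WT sample, a separation found in 13.3% of all tested genes, and in 0 genes did every KO sample lie below, against 29.9%.

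**Figure D1:**
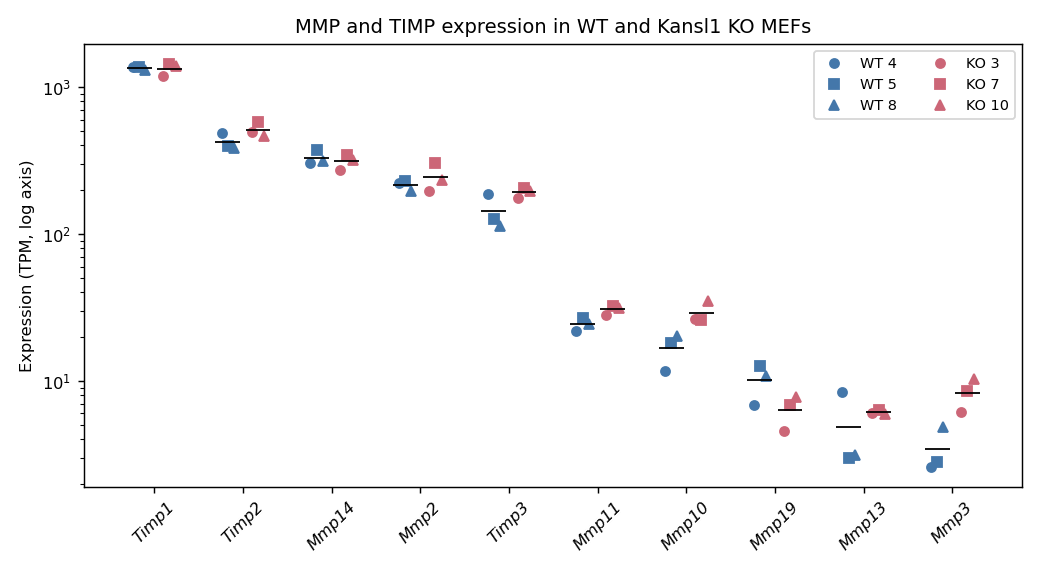
Expression of each gene in TPM on a log axis. Each symbol is 1 sample (blue WT, red KO) and the lines are group means of 3 samples; Timp1 stands highest with 1189 to 1432 TPM, and only Mmp3, Mmp10 and Mmp11 show every KO sample above every WT sample.

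Mmp3 and Mmp10 encode stromelysin-1 and stromelysin-2, and Mmp13 encodes the main interstitial collagenase of rodents. The 3 genes lie on the plus strand of chromosome 9 in 1 cluster (build mm10): Mmp13 (ENSMUSG00000050578.10) at chr9:7272514-7283331, Mmp3 (ENSMUSG00000043613.8) at chr9:7445822-7455975 and Mmp10 (ENSMUSG00000047562.3) at chr9:7502352-7510240. The gap between the end of Mmp3 and the start of Mmp10 is 46.4 kb, with Mmp1a between them, and the gap from Mmp13 to Mmp3 is 162.5 kb. Promoter sequences from RefSeq (GRCm38.p6, the same assembly as mm10) were matched for 8 of the 10 genes, Mmp2 and Mmp19 having no entry. The 250 bases upstream of the RefSeq start were searched on both strands for the AP-1 motif TGANTCA, the PEA3 motif of ETS factors AGGAAG and the TATA box TATAAA, whose matches do not overlap each other. The AP-1 motif was present upstream of 3 of the 8 genes, those of the chromosome 9 cluster, and in 6.75% of all 32851 promoters. The TATA box was present upstream of the same 3 genes and in 12.4% of all promoters. The PEA3 motif was present upstream of 5 genes (Mmp3, Mmp13, Mmp14, Timp1 and Timp3) and in 29.5% of all promoters. A match of letters is a description and not a shown binding site. The 3 promoters with an AP-1 match are printed because these genes share both motifs and include the pair with the largest differences, with the AP-1 match in capitals, 5′ to 3′ on the plus strand, at chr9:7445572-7445821 for Mmp3, chr9:7502092-7502341 for Mmp10 and chr9:7272264-7272513 for Mmp13.
Mmp3: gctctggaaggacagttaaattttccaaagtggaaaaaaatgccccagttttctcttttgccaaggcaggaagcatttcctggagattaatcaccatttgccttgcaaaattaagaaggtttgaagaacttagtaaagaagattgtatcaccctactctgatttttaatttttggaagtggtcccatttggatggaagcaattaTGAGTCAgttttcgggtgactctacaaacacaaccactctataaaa
Mmp10: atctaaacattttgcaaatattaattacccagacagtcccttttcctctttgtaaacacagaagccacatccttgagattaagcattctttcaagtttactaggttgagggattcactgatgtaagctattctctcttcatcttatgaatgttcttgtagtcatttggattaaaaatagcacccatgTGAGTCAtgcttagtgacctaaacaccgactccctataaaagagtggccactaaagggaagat
Mmp13: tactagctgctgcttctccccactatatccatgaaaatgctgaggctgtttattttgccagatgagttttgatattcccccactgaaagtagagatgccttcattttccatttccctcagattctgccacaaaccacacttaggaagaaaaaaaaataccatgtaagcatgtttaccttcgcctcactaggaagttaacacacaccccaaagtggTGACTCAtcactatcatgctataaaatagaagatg
Counted from the annotated RefSeq start, the AP-1 match lay at -46 to -40 in Mmp3, at -63 to -57 in Mmp10 and at -35 to -29 in Mmp13. The TATA box lay nearer to the start in each, at -7 to -2 in Mmp3, -29 to -24 in Mmp10 and -16 to -11 in Mmp13.

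Mmp3 showed the largest difference of the 10 genes. It measured 2.60, 2.79 and 4.86 TPM in the WT samples, against 6.11, 8.48 and 10.3 TPM in the KO samples. Every KO sample was above every WT sample, and the highest WT sample and the lowest KO sample were close. The WT mean was 3.42 ± 1.25 TPM (SD, n = 3) and the KO mean 8.28 ± 2.08 TPM (SD, n = 3), a rise of 2.42-fold. On the log2(TPM + 1) scale the change of Mmp3 was 1.08 (SE 0.23, 95% interval 0.58 to 1.59, limma adjusted p = 0.00678). Mmp3 thus passed 0.05 but not the 0.005 of the study. The size depended on the scale, with log2 fold changes of 1.28 when 0.1 in place of 1 was added to the TPM and 1.33 with voom. The values rest on 38, 44 and 83 reads in WT and 80, 148 and 165 reads in KO. The 95% Poisson intervals of WT 8 (3.87 to 6.02 TPM) and KO 3 (4.84 to 7.60 TPM) overlapped, and these intervals cover counting error only. Of the stretches of 50 bases in Mmp3 transcripts, 8.39% also occur in other genes, and 140 of these 147 stretches occur in Mmp10, so reads there could have been assigned to either gene. The share for Mmp10 is 8.37%.

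Mmp10 had more reads and a smaller fold. It stood at 11.7, 18.1 and 20.1 TPM in the WT samples, against 26.5, 26.0 and 34.9 TPM in the KO samples. The groups did not overlap, and the 95% Poisson interval of WT 8 (18.0 to 22.4 TPM) lay below that of KO 7 (23.6 to 28.6 TPM). The WT mean was 16.6 ± 4.41 TPM (SD, n = 3) and the KO mean 29.1 ± 4.97 TPM (SD, n = 3), or 175% of the WT level. On the log2 scale Mmp10 rose by 0.79 (SE 0.19, 95% interval 0.36 to 1.23, limma adjusted p = 0.0143). Leaving out WT 4, the lowest sample, left a log2 fold change of 0.57 (limma adjusted p = 0.0208). With all genes of the table tested, the limma adjusted p of Mmp10 was 0.0567, past neither threshold, and that of Mmp3 was 0.0376.

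Markers of macrophages, which also make MMPs, moved in the same direction as Mmp3 and Mmp10. The summed level of 10 macrophage markers was 42.7 to 50 TPM in WT and 86.6 to 171 TPM in KO samples, with KO 10, the sample with the most Mmp3 and Mmp10, the highest. Of the 7 markers tested, 1 was called higher by limma at the thresholds of the study and 6 at the looser one, against 1.64% and 4.69% of all tested genes. The called marker was Lyz2, which encodes lysozyme, at 23.8, 20.6 and 23.1 TPM in the WT samples, against 53.1, 57.0 and 111.0 TPM in the KO samples (log2 fold change 1.59, limma adjusted p = 0.00142). Lyz2 had the largest share of the summed level in every sample. The tested marker that passed neither threshold was Cd14, at 7.05, 5.60 and 5.48 TPM in the WT samples, against 5.95, 5.78 and 7.63 TPM in the KO samples (log2 fold change 0.08, limma adjusted p = 0.724). Adgre1, 1 of the 6, reached the mean of 1 TPM needed for the test only in KO, and 3 markers reached it in neither group, so the count is in part set by the filter. The pan-leukocyte marker Ptprc (CD45) was at 0.0876, 0.0872 and 0.0921 TPM in the WT samples, against 0.113, 0.0902 and 0.257 TPM in the KO samples. The myeloid integrin Itgam was at 0.123, 0.0908 and 0.063 TPM in the WT samples, against 0.0274, 0.144 and 0.379 TPM in the KO samples. Both were low and highest in KO 10. The macrophage receptor Csf1r was at 1.47, 1.09 and 1.68 TPM in the WT samples, against 2.26, 3.13 and 4.77 TPM in the KO samples. The summed epithelial and endothelial markers given above were likewise higher in every KO sample than in every WT sample. Krt18 and Krt19 made up most of the epithelial sum, and Kdr most of the endothelial sum. Krt18 and Kdr were higher in every KO sample than in every WT sample. Krt19 was at 31.8, 19.8 and 25.5 TPM in the WT samples, against 28.9, 30.4 and 31.5 TPM in the KO samples, so its groups overlapped. Epcam stayed at 0.612 TPM or less in every sample. The part of RNA from any of these cells in the Mmp3 and Mmp10 values was not tested.

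Mmp13 differed between samples in another way. It was at 8.45, 2.99 and 3.12 TPM in the WT samples, against 6.02, 6.37 and 5.91 TPM in the KO samples. The WT 4 sample was above all KO samples and the remaining WT samples were below them, so the groups overlapped. The means were 4.85 ± 3.12 TPM (SD, n = 3) in WT and 6.10 ± 0.242 TPM (SD, n = 3) in KO. Mmp13 had a log2 fold change of 0.40 (95% interval -0.25 to 1.05, limma adjusted p = 0.337). Without WT 4 the log2 fold change of Mmp13 was 0.81 with a limma adjusted p of 0.00434, which passes the thresholds of the study. The summed level of 9 cartilage and bone markers was 127, 55.6 and 51.2 TPM in the WT samples, against 69.3, 107 and 75.6 TPM in the KO samples, with WT 4 again the highest. The markers did not all follow this order. Sox9, the transcription factor of chondrocytes, was at 17.4, 19.6 and 15.8 TPM in the WT samples, against 24.4, 27.8 and 26.1 TPM in the KO samples, and rose at the looser threshold (log2 fold change 0.54, limma adjusted p = 0.00708). Voom called Sox9 higher, as it did 2.93% of all tested genes. Acan, the main proteoglycan of cartilage, was at 4.53, 4.03 and 4.09 TPM in the WT samples, against 1.51, 3.66 and 3.01 TPM in the KO samples (log2 fold change -0.53, limma adjusted p = 0.105), without overlap of the groups. Col9a1 and Ibsp were highest in WT 5. Col2a1, the collagen of cartilage, was at 95.3, 28.7 and 28.8 TPM in the WT samples, against 38.9, 71.0 and 40.2 TPM in the KO samples. Col10a1, the collagen of hypertrophic chondrocytes, was at 7.06, 0.984 and 1.08 TPM in the WT samples, against 2.94, 2.97 and 4.65 TPM in the KO samples. These markers were picked after their values were seen. The part of such cells in the Mmp13 values was not tested.

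**Figure D2:**
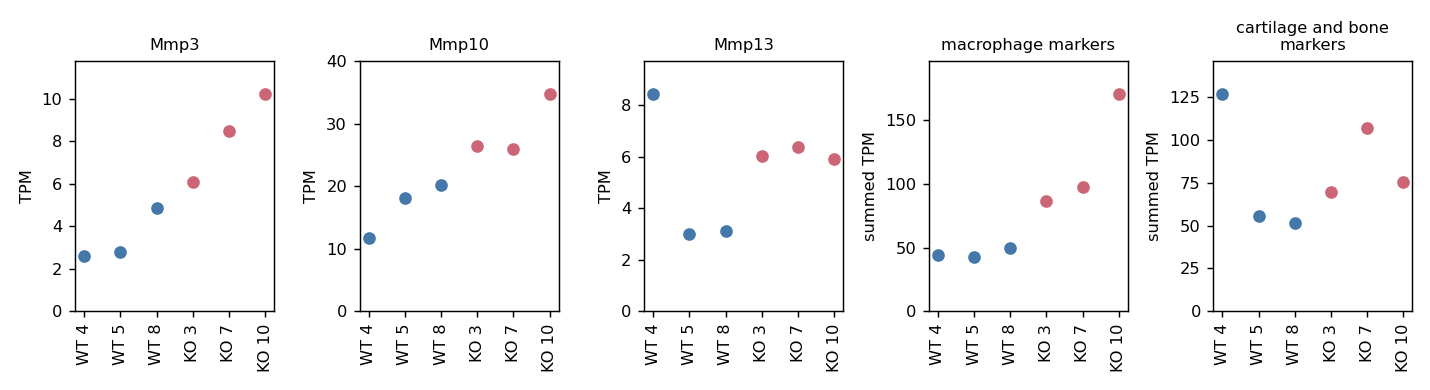
TPM of Mmp3, Mmp10 and Mmp13 in each sample, beside the summed TPM of 10 macrophage markers and of 9 cartilage and bone markers (blue WT, red KO; each axis starts at 0). Mmp3, Mmp10 and the summed macrophage markers are higher in every KO sample than in every WT sample, whereas Mmp13 and the summed cartilage and bone markers are highest in WT 4.

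Mmp2 and Mmp14 formed the bulk of the summed expression of the 7 MMPs. Mmp14 (ENSMUSG00000000957.11, chr14:54431612-54445364, plus strand) encodes MT1-MMP, a membrane-bound collagenase that activates the gelatinase encoded by Mmp2. It was at 302.9, 373.5 and 311.4 TPM in the WT samples, against 270.8, 345.1 and 318 TPM in the KO samples. The groups overlapped, with a log2 fold change of -0.08 (95% interval -0.36 to 0.20) and a limma adjusted p of 0.659. The sign of this value turned under median-of-ratios scaling, to 0.02. Mmp2 (ENSMUSG00000031740.8, chr8:92827291-92853420, plus strand) was at 223.3, 228 and 196.5 TPM in the WT samples, against 196.5, 303.3 and 233.2 TPM in the KO samples. KO 7 was the highest of the 6 samples and KO 3 level with the lowest. The log2 fold change of Mmp2 was 0.16 (95% interval -0.18 to 0.50, limma adjusted p = 0.471) and became -0.01 without KO 7. The intervals leave room for differences of up to 0.36 on the log2 scale for a lower Mmp14 and of up to 0.50 for a higher Mmp2.

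Mmp11 and Mmp19 are secreted MMPs of lower expression. Mmp11 (ENSMUSG00000000901.17, chr10:75923222-75936496, minus strand) encodes stromelysin-3, which is activated inside the cell by furin. It was at 21.8, 26.9 and 24.2 TPM in the WT samples, against 28.1, 32.4 and 31.5 TPM in the KO samples. All KO samples were above all WT samples by a small margin. The 95% Poisson intervals of WT 5 (24.8 to 29.0 TPM) and KO 3 (25.8 to 30.5 TPM) overlapped. The means were 24.3 ± 2.52 TPM (SD, n = 3) and 30.6 ± 2.27 TPM (SD, n = 3). Mmp11 had a log2 fold change of 0.33 (95% interval 0.07 to 0.58, limma adjusted p = 0.0606), which passed neither threshold. Exons of Mmp11 overlap the opposite-strand gene Chchd10 over 155 bp, and Chchd10 had at most 1.31 TPM.

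Mmp19 (ENSMUSG00000025355.7, chr10:128790910-128800824, plus strand) encodes an MMP that cuts basement membrane proteins. It was at 6.88, 12.6 and 10.8 TPM in the WT samples, against 4.55, 6.81 and 7.74 TPM in the KO samples. WT 4 lay among the KO samples, and the other two WT samples were above them. The means were 10.1 ± 2.92 TPM (SD, n = 3) and 6.37 ± 1.64 TPM (SD, n = 3). Mmp19 had a log2 fold change of -0.58 (95% interval -1.09 to -0.07, limma adjusted p = 0.0867). Mmp19 was the only one of the 10 genes with a log2 fold change below -0.5, and it did not pass the test. It passed the looser threshold without WT 4 (log2 fold change -0.81, limma adjusted p = 0.016) and with only genes of at least 10 TPM tested (-0.58, limma adjusted p = 0.0151), a filter that it met only through its WT mean. Its exons share 789 bp with the opposite-strand gene Tmem198b (15.5 to 18.3 TPM), and as no source says if strand was used in counting, reads of the pair may be mixed. Of the 50-base stretches of Mmp19, 24.7% also occur in other genes.

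**Figure D3:**
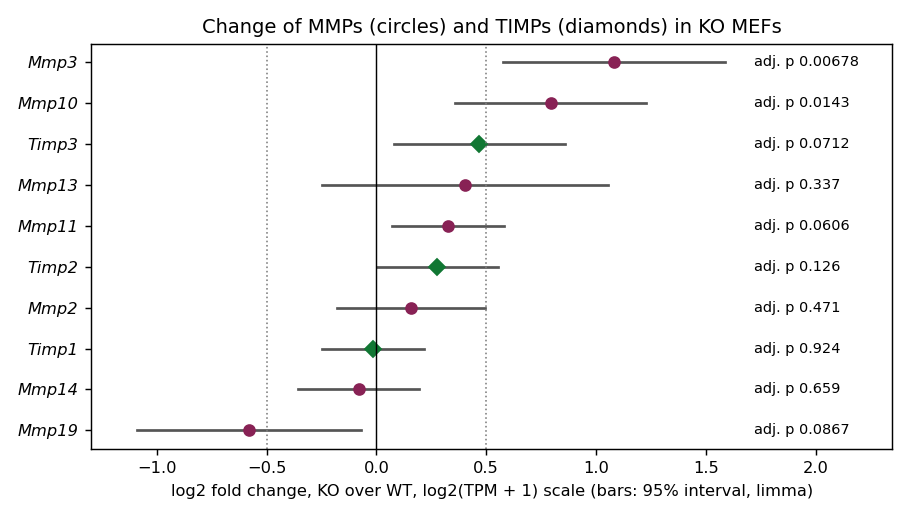
The log2 fold change of each gene in KO over WT MEFs on the log2(TPM + 1) scale, with its 95% interval from limma and the adjusted p (circles MMPs, diamonds TIMPs, dotted lines at -0.5 and 0.5). The values run from -0.58 for Mmp19 to 1.08 for Mmp3, and only the intervals of Mmp3, Mmp10, Mmp11, Mmp19, Timp2 and Timp3 leave out 0.

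Timp1 and Timp2 stood above every MMP in mean TPM, and none of the 3 TIMPs passed either threshold. Timp1 (ENSMUSG00000001131.11, chrX:20870166-20874735, plus strand) encodes a secreted inhibitor with a broad range of MMP targets. It was at 1359, 1372 and 1311 TPM in the WT samples, against 1189, 1432 and 1387 TPM in the KO samples. The groups overlapped and their means were 1347 ± 31.8 TPM (SD, n = 3) and 1336 ± 129 TPM (SD, n = 3). The log2 fold change of -0.02 (95% interval -0.25 to 0.22, limma adjusted p = 0.924) turned to 0.09 under median-of-ratios scaling.

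Timp2 (ENSMUSG00000017466.9, chr11:118301069-118355740, minus strand) encodes the inhibitor that, bound to MT1-MMP, also takes part in the activation of MMP2. It was at 485.6, 397.6 and 385.3 TPM in the WT samples, against 493.5, 574.7 and 466.4 TPM in the KO samples. WT 4 was above KO 10, so the groups overlapped. The means were 422.8 ± 54.7 TPM (SD, n = 3) and 511.5 ± 56.4 TPM (SD, n = 3). Timp2 had a log2 fold change of 0.28 (95% interval 0.001 to 0.55, limma adjusted p = 0.126).

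Timp3 (ENSMUSG00000020044.13, chr10:86300372-86349506, plus strand) encodes the inhibitor that binds to the extracellular matrix and also blocks ADAM proteases. It was at 188.1, 125.5 and 113.2 TPM in the WT samples, against 176, 206.9 and 196 TPM in the KO samples. WT 4 was above KO 3, and the remaining WT samples were below all KO samples. The means were 142.3 ± 40.1 TPM (SD, n = 3) and 193 ± 15.7 TPM (SD, n = 3). Timp3 had a log2 fold change of 0.47 (95% interval 0.08 to 0.86, limma adjusted p = 0.0712). Without WT 4 the log2 fold change of Timp3 was 0.69 with a limma adjusted p of 0.00258, past the thresholds of the study, and under median-of-ratios scaling it passed the looser one (0.57, limma adjusted p = 0.0203). Exons of Timp3 overlap the opposite-strand gene Syn3 over 1733 bp, and Syn3 had at most 0.0944 TPM. Of the 50-base stretches of Timp3, 21.4% also occur in other genes, mostly in Syn3. As no source says if strand was used in counting, the effect of this overlap on the Timp3 values is not known. WT 4 was the highest WT sample for Timp2, Timp3 and Mmp13 and the lowest for Mmp3, Mmp10, Mmp11, Mmp14 and Mmp19. The summed level of the fibroblast markers was also lowest in WT 4, at 7200 TPM against 8220 to 11200 TPM in the other 5 samples. Of the 10 fibroblast markers, 7 were lowest in WT 4, Pdgfra and Fap were lowest in KO 3, and Vim was highest in WT 4. The part of this in the values of WT 4 was not tested.

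Because TPM is per length, levels can be ordered and summed. In WT MEFs the order from high to low was Timp1, Timp2, Mmp14, Mmp2, Timp3, Mmp11, Mmp10, Mmp19, Mmp13 and Mmp3. Of the neighbours in this order, Mmp10 and Mmp19, Mmp19 and Mmp13, and Mmp13 and Mmp3 overlapped in their sample values, and the other pairs did not. In KO MEFs the first 7 genes kept their places, and Mmp3 moved above Mmp19 and Mmp13. There the values of Mmp14 and Mmp2, Mmp2 and Timp3, Mmp11 and Mmp10, Mmp3 and Mmp19, and Mmp19 and Mmp13 overlapped.

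The summed level of the 7 MMPs was 577.6, 664.8 and 571 TPM in the WT samples, against 538.6, 728.4 and 641.5 TPM in the KO samples. The summed level of the 3 TIMPs was 2033, 1895 and 1810 TPM in the WT samples, against 1859, 2213 and 2050 TPM in the KO samples. For both sums the groups overlapped. The TIMP sum divided by the MMP sum was 3.18 ± 0.335 (SD, n = 3) in WT and 3.23 ± 0.208 (SD, n = 3) in KO, a difference smaller than the spread between samples. Mmp2 and Mmp14 together held 85.9% to 91.1% of the MMP sum in each sample, and Timp1 held 64.0% to 72.5% of the TIMP sum. Mmp3 and Mmp10 together held 2.47% to 4.38% of the MMP sum in WT and 4.73% to 7.03% in KO MEFs. These shares and the ratio of TIMPs to MMPs cover the 7 MMPs only. The other MMPs summed to 51.3 to 90.1 TPM in WT and 70 to 91 TPM in KO samples.

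**Figure D4:**
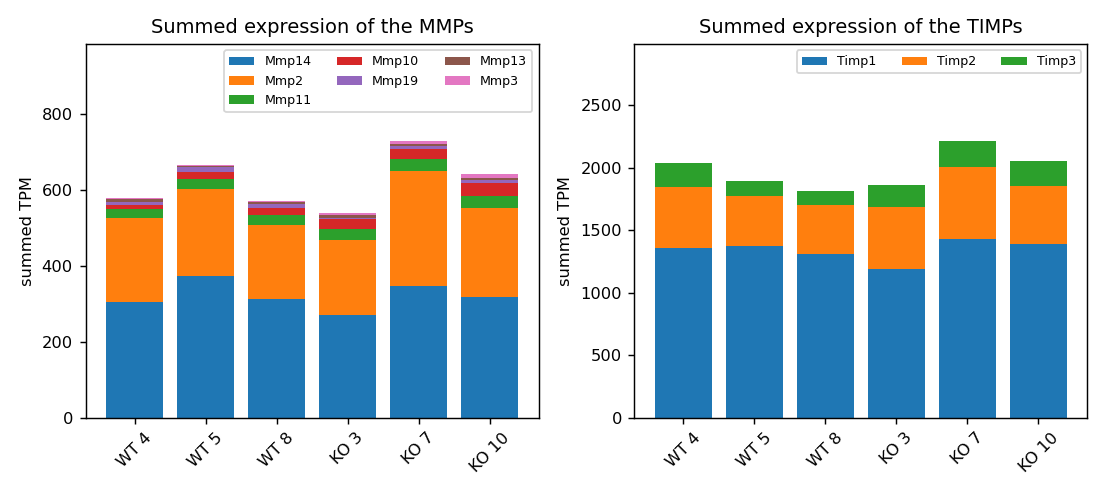
Summed TPM of the 7 MMPs (left) and the 3 TIMPs (right) in each sample, stacked by gene, with axes that start at 0. MMP sums run from 538.6 to 728.4 TPM and TIMP sums from 1810 to 2213 TPM, and the WT and KO samples overlap in both.

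The same comparison was read in related genes. Of 17 further genes of the MMP and TIMP families, 14 were analysed and 6 were tested, of which 1 was called higher and 0 lower by limma (the same counts at the looser threshold, at an unadjusted p under 0.05 and with voom), with a median log2 fold change of -0.03. Of all tested genes, 1.64% were called higher, 4.69% were higher at the looser threshold, 12.2% at an unadjusted p under 0.05 and 2.93% with voom. The gene called higher was Mmp15, which encodes the membrane-bound MT2-MMP. It was at 0.846, 0.845 and 0.899 TPM in the WT samples, against 4.10, 3.58 and 4.01 TPM in the KO samples, with clear separation. Mmp15 rose with a log2 fold change of 1.39 (SE 0.16) and a limma adjusted p of 0.00041, resting on 37 to 46 reads in WT and 161 to 193 reads in KO. The size of this change depended on the scale, with log2 fold changes of 2.05 at a pseudocount of 0.1 and 2.15 with voom. Mmp15 entered the test only through the KO group, as its WT mean was 0.863 TPM, and with all genes of the table tested its limma adjusted p was 0.00434. Mmp9, the other gelatinase, picked after its values were seen, ranged from 7.88 to 34.5 TPM in WT and from 24.0 to 36.2 TPM in KO, with its lowest value in WT 4 (log2 fold change 0.62, limma adjusted p = 0.324). Its log2 fold change was -0.01 without WT 4, and with only genes of at least 10 TPM tested it passed the looser threshold (limma adjusted p = 0.0493).

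Among the ADAM proteases, membrane-bound relatives that shed cell surface proteins, 0 of 9 tested genes were called either way by limma (1.64% higher and 9.03% lower among all tested genes) or with voom (2.93% and 14.5%). At an unadjusted p under 0.05, 2 were higher and 1 lower (12.2% and 27.2% of all tested genes), and 1 was higher at the looser threshold (4.69% of all tested genes). That gene was Adam8, at 2.55, 2.16 and 3.18 TPM in the WT samples, against 3.82, 3.98 and 5.75 TPM in the KO samples (log2 fold change 0.60, limma adjusted p = 0.0363), and it missed the looser threshold when WT 4, WT 5, KO 7 or KO 10 was left out (adjusted p 0.0685, 0.117, 0.0524 and 0.161) and when all genes of the table were tested (adjusted p = 0.11). Adam33 differed more on the log2 scale, by 0.72, but failed the test (limma adjusted p = 0.104), and without WT 4 it differed less than Adam8 (0.39 against 0.58). Among the ADAMTS proteases, which cut proteoglycans and process procollagen, 0 of 11 tested genes were called by limma, and 1 was lower at the looser threshold, at an unadjusted p under 0.05 and as a call of voom (16.6%, 27.2% and 14.5% of all tested genes). No more of the list was lower than of all tested genes. The gene was Adamts5, an aggrecan-cutting enzyme that TIMP3 inhibits, at 14.5, 13.2 and 9.35 TPM in the WT samples, against 7.30, 6.77 and 6.65 TPM in the KO samples. Adamts5 fell by 0.74 on the log2 scale (SE 0.16, limma adjusted p = 0.0079), and its groups did not overlap. The next largest difference in this list was that of Adamts9, with a log2 fold change of 0.32 (limma adjusted p = 0.221), and with voom it passed the looser threshold (0.51, adjusted p = 0.0139), while without KO 7 it was 0.20 (limma adjusted p = 0.491).

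Among 13 tested activators and regulators of MMPs, 0 were called by limma, against 1.64% of all tested genes called higher and 9.03% lower. At an unadjusted p under 0.05, 2 were higher and 1 was lower (12.2% and 27.2% of all tested genes). At the looser threshold 1 was lower (16.6% of all tested genes). The lower gene, also called by voom (14.5% of all tested genes), was Reck, a membrane-anchored inhibitor of MMPs, at 10.6, 10.5 and 9.91 TPM in the WT samples, against 5.93, 7.17 and 7.80 TPM in the KO samples. Reck fell by 0.52 on the log2 scale (SE 0.13, limma adjusted p = 0.0146) without overlap of the groups, and it missed the looser threshold without WT 4 (-0.4999), without KO 3 (-0.42), under median-of-ratios scaling (-0.42) or without WT 5 (adjusted p = 0.054). Thbs2, which encodes a thrombospondin that promotes MMP2 uptake, had a log2 fold change of 0.33 with a limma adjusted p of 0.157 (0.17 without WT 4, and 0.48 with an adjusted p of 0.0481 without WT 5). The log2 fold change of Furin was 0.10. Among 17 tested transcription factors, 0 were called by limma (1.64% higher and 9.03% lower among all tested genes). At an unadjusted p under 0.05, 3 were higher and 0 lower (12.2% and 27.2% of all tested genes). At the looser threshold 1 was higher (4.69% of all tested genes). The higher gene, also called by voom (2.93% of all tested genes), was Fosl1, which encodes the AP-1 subunit FRA-1, at 15.6, 16.0 and 11.9 TPM in the WT samples, against 20.5, 23.4 and 26.2 TPM in the KO samples (log2 fold change 0.65, limma adjusted p = 0.00808). Of the other AP-1 genes tested, Fos, Fosb, Fosl2, Jun, Junb and Jund had log2 fold changes between -0.21 and 0.15. Ets1 followed Fosl1 in size, with a log2 fold change of 0.33 (limma adjusted p = 0.0593). The median log2 fold changes of the ADAM, ADAMTS, regulator and transcription factor lists were -0.03, 0.05, 0.06 and 0.06. That of the 6 other tested MMPs was -0.03, with 3 of them positive. The median was 0.30 for the 10 MMP and TIMP genes, which were chosen with earlier results known, and -0.07 for all tested genes.

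**Figure D5:**
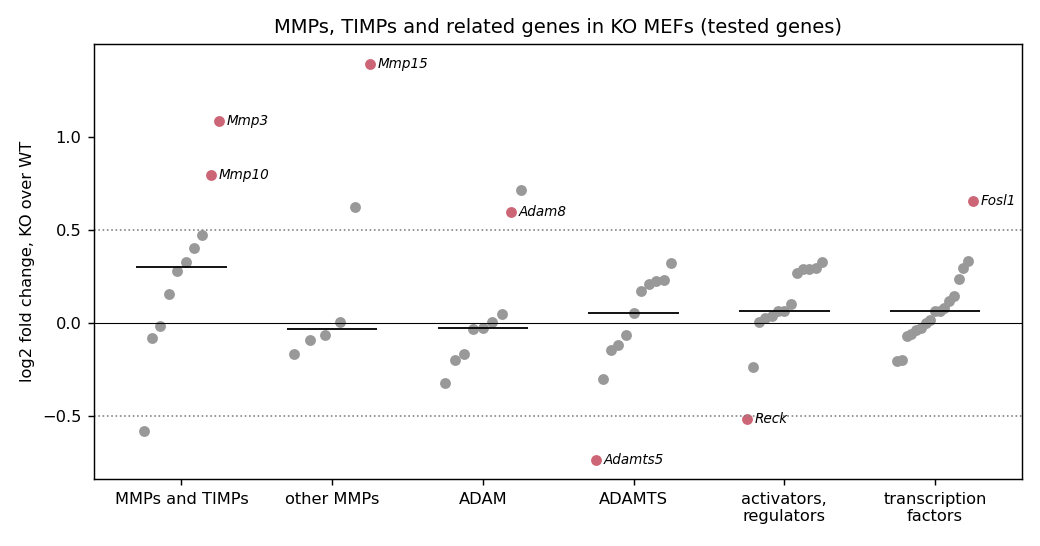
The log2 fold change in KO over WT MEFs of each tested gene, by list, with list medians as lines and dotted lines at -0.5 and 0.5. Genes in red have a limma adjusted p under 0.05 and a log2 fold change beyond 0.5; they are Mmp3, Mmp10, Mmp15, Adam8 and Fosl1 above 0 and Adamts5 and Reck below.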

How the data were processed

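RNA was sequenced from 6 MEF samples, grouped by their titles. The study used 2 μg RNA per sample, NEBNext Ultra libraries, an Illumina sequencer, STAR for alignment to mm10 and DESeq2 for its tests, while the submitters' processing notes name Bowtie 0.12.2; the counting program and its use of strand were not given in the sources used here. The labels give 10% serum for the medium and the methods of the study another content. The authors deposited expression as TPM for 26898 genes. Columns with the log2 fold change and p-value of the comparison made by the authors were deposited too and were not used. The TPM columns sum to 1000000 in each sample. Multiplied by merged exon length (GENCODE M21), 100.0% of the values checked were whole multiples of 1 step per sample at a tolerance of 0.05, and whole reads were recovered from them.

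KO was compared with WT on log2(TPM + 1) using limma 3.58.1 (R 4.3.3), with a trend of the variance on the mean and no covariate. Of the genes, 14799 had a mean of 1 TPM or more in WT or in KO and were tested. This scale understates the change of low genes. P-values were adjusted by Benjamini-Hochberg over all of these genes. The steps were tested on simulated data. DESeq2 was not run here. Alternatives were a pseudocount of 0.1, no filter, a filter at 10 TPM, no variance trend, median-of-ratios scaling, an adjusted p-value under 0.05, voom on the recovered reads, and each sample left out. According to the study the 3 samples per group came from 3 mice, and litters were not given. The p-values set the group difference against the spread between these samples, which limma moderates toward that of genes of like level. The 10 genes, the gene lists and the marker lists were chosen with earlier results of these data known. Genes named besides the 10 are Kansl1 and, per related list, the called genes or else the pair with the largest difference. Mmp9, Furin, the AP-1 genes besides Fosl1, single marker genes, the low genes of the chromosome 9 cluster and the genes overlapping Mmp11, Mmp19 and Timp3 (Chchd10, Tmem198b and Syn3) were named outside this rule, with their values known. Promoters came from RefSeq (GRCm38.p6). Shared stretches are words of 50 bases found in exons of other genes on either strand. Python 3.11.15, pandas 2.3.3, scipy 1.17.1 and matplotlib 3.10.9 were used.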

Additional observations from a re-analysis of the deposited data

How the results depend on the processing

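Of the 10 genes, 0 were called lower under any of the 13 alternatives. The number called higher was 1 with a filter at 10 TPM (Mmp10, limma adjusted p = 6.61e-05), 2 at an adjusted p under 0.05, 1 with voom (Mmp3, log2 fold change 1.33, adjusted p = 0.00463) and 0 to 2 with 1 sample left out. Leaving out WT 8 brought Mmp3 past the thresholds (log2 fold change 1.30, adjusted p = 0.00347), and leaving out WT 4 brought Mmp13 and Timp3 past them. With a sample left out, the log2 fold changes ranged from 0.93 to 1.30 for Mmp3 (adjusted p 0.00347 to 0.0242), 0.57 to 0.94 for Mmp10 (0.0105 to 0.044), 0.19 to 0.81 for Mmp13 and 0.32 to 0.69 for Timp3. The prior degrees of freedom of limma were 33.7 with the filter at 10 TPM and 5.49 with the filter at 1 TPM, and the SE of Mmp10 was 0.15 in place of 0.19. Mmp3 and Mmp13 have no value under that filter. Signs turned for 3 genes near 0. Mmp2 ranged from -0.0093 to 0.30 and Mmp14 from -0.16 to 0.015 with a sample left out, Mmp14 was 0.023 under median-of-ratios scaling, and Timp1 was 0.089 under that scaling, 0.0042 with voom and -0.069 to 0.065 with a sample left out. The median shift of a gene under that scaling was 0.096. Among the related genes, Mmp9 turned to -0.0051 without WT 4 (range with a sample left out -0.0051 to 0.99). Those called higher (1) were 2 under median-of-ratios scaling, 3 at an adjusted p under 0.05 and 2 with voom, and those called lower (0) were 1 with the filter at 10 TPM (Adamts5, which met that filter only through its WT mean), 2 at an adjusted p under 0.05, 2 with voom and 0 to 1 with a sample left out. These related-gene alternatives were added after seeing the data. Kansl1 kept its call in all settings (log2 fold change -0.87 to -0.72). Among all tested genes, those called higher (242) numbered 55 with no filter, 343 of 8230 with the filter at 10 TPM, 473 under median-of-ratios scaling, 694 at an adjusted p under 0.05, 433 with voom and 84 to 252 with a sample left out. Those called lower (1337) numbered 286 with no filter, 1160 of 8230 with the filter at 10 TPM, 2453 at an adjusted p under 0.05, 2152 with voom and 617 to 938 with a sample left out. The cause of these differences was not tested. No paired analysis was possible because no replicate number occurs in both groups. Counting error is largest for Mmp3, with 38 to 165 reads per sample, where the Poisson intervals of WT 8 and KO 3 overlap. For Mmp11 the intervals of WT 5 and KO 3 overlap too.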

Other observations

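Other genes of the chromosome 9 cluster were too low for the test. Mmp12, the macrophage elastase, which lies between Mmp13 and Mmp3, was at 0.256, 0.378 and 0.539 TPM in the WT samples, against 0.627, 1.21 and 0.604 TPM in the KO samples. These values rest on 15, 24 and 37 reads in WT and 33, 85 and 39 reads in KO, and the groups did not overlap. Mmp1a, which lies between Mmp3 and Mmp10, had 0 reads in each WT sample and 1, 1 and 2 reads in KO 3, 7 and 10. Mmp1b stayed at 0.464 TPM or less, Mmp8 at 0.141 TPM or less and Mmp27 at 0.253 TPM or less in every sample.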
